A study of Mus musculus with 15 samples.

Results

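The genes described here make cholesterol, sense it and move it within the cell. The set holds 31 genes chosen by symbol, out of 55335 gene identifiers in the count files. All 31 were found, and 30 had enough reads to be tested, the exception being Abca1. RNA was measured in 6 libraries of cultured mouse pre-B cells, a B cell precursor stage. There were 3 libraries titled Msl2 knockout and 3 titled wild type. Per the labels, cells of both groups also lack SLP65, the signalling adaptor encoded by Blnk. The parental culture was a clone of 1 bone marrow cell, kept with interleukin 7 and given no treatment. The knockout line was made by electroporation with a guide RNA against Msl2 and was compared with the wt clone, so each genotype is represented by 1 line. Effects of Msl2 loss therefore cannot be told apart from other differences between the lines. MSL2, a ubiquitin ligase, belongs to the MSL complex that acetylates histone H4, and the comparison asked how RNA levels differ in its absence.

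In all 6 RNA libraries the genotype tag says the opposite of the title. The groups follow the titles, and every direction below depends on them. Msl2 itself did not check them, because its RNA was at 105, 103 and 121 CPM (reads of a gene scaled to a common library size) in knockout replicates 1, 2 and 3, against 97.1, 99.3 and 92.3 CPM in wild-type replicates 1, 2 and 3. Its log2 fold change, knockout over wild type throughout, was 0.19 ± 0.08 (SE), and edgeR gave an adjusted p of 0.302. Total counts ranged from 15250975 to 20803227 in the knockout libraries and from 14092278 to 17437198 in the wild-type libraries. A gene with 0 reads in a library is limited to between 0.141 and 0.212 CPM at these depths, for counting error only. The pre-B label was borne out by 12 markers, whose summed level was 2315 to 2362 CPM in the knockout and 2396 to 2543 CPM in the wild type. Of 11 of them tested, 1 was called, Il7r, which was lower in the knockout. The recombinase genes Rag1 and Rag2 set wild-type replicate 2 apart from the other wild-type libraries. Rag1 had 29, 17 and 9 reads in knockout replicates 1, 2 and 3, against 0, 34 and 0 reads in wild-type replicates 1, 2 and 3. Rag2 had 54, 44 and 37 reads in the knockout replicates, against 0, 27 and 0 reads in the wild-type replicates. Summed markers of T, myeloid and erythroid cells stayed between 1.85 and 5.29 CPM in the knockout and between 2.19 and 6.09 CPM in the wild type, with Lyz2 and Elane at 0 reads; Gata1 was called lower in the knockout. Stromal markers summed to 0.124 to 0.141 CPM in the knockout and 0.0707 to 0.199 CPM in the wild type.

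Cells build cholesterol from acetyl-CoA through mevalonate, farnesyl diphosphate and squalene. The transcription factors SREBP-1 and SREBP-2, encoded by Srebf1 and Srebf2, are made as precursors in the endoplasmic reticulum membrane. SCAP escorts them to the Golgi for cleavage when sterols are scarce, and the INSIG proteins hold them back when sterols are plentiful. Cleaved SREBP-2 mainly drives the sterol enzymes and SREBP-1 mainly fatty acid synthesis, while the oxysterol receptors LXR drive Srebf1 transcription and cholesterol export. SREBPs work poorly alone and are known to bind beside partners, of which NF-Y is the best studied.

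The promoters were searched for such sites, taking the 250 bases before each start in the RefSeq table (GRCm38.p6, which is mm10), on both strands. A start was listed for 25 of the 31 genes, 15 of them synthesis enzymes, and a gene was counted if any of its starts held the motif. The NF-Y box CCAAT was present in 21 of 25 members (84%) and in 14 of the 15 synthesis enzymes (93.3%), against 41% of 8899 tested genes and 37.5% of 27025 genes in the table. The GC box GGGCGG was present in 22 members (88%), against 63.2% of tested genes and 35.4% of the table. The E-box CACGTG, which SREBPs can also bind, was present in 6 members (24%), against 10.2% and 6.86%. The classic sterol regulatory element, TCACNCCAC, was found in 1 member (4%), against 1.25% and 1.22%. Only this form was searched, so sterol elements that differ from it by any fixed base were not counted. A motif of YY1, the factor named in the study's title, GCCATNTT, was in 2 members (8%), against 5.71% and 4.49%. The share in tested genes was added after the data were seen. These are matches of letters, not measured binding, and 0 pairs of matches to different motifs overlapped.

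The following 5 promoters are printed 5′ to 3′ on the gene's strand and end at the base before the start. Capitals mark the sterol regulatory element, the NF-Y box and the YY1 motif in either orientation. Hmgcs1 (chr13:119690101-119690350, plus strand) is shown because it alone held the searched form of the sterol element, 137 bases before its start, between NF-Y boxes. Idi1 (chr13:8885356-8885605, plus strand) is shown because its RNA varied most among the knockout libraries. Insig1 (chr5:28071162-28071411, plus strand) varied with the enzymes, as described below. Srebf1 had the smallest p of the set, and the third of its 3 listed starts (chr11:60210472-60210721, minus strand) is shown because it had an NF-Y box nearest the start. Npc2 (chr12:84773113-84773362, minus strand) is shown because it was among the steadiest genes measured and carried the YY1 motif.
Hmgcs1: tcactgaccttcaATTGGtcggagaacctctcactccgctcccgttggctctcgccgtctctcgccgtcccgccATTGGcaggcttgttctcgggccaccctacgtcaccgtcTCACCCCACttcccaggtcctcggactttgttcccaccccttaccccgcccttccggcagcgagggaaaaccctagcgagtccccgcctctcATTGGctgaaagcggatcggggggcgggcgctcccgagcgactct
Idi1: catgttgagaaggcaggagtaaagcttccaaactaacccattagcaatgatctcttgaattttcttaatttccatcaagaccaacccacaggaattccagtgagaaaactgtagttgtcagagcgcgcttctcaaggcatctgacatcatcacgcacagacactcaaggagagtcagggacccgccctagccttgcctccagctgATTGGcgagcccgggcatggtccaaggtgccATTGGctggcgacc
Insig1: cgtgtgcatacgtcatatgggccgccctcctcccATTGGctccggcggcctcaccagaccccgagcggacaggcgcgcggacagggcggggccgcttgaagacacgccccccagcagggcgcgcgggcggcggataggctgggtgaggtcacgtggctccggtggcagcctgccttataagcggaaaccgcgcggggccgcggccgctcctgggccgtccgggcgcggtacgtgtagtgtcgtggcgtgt
Srebf1: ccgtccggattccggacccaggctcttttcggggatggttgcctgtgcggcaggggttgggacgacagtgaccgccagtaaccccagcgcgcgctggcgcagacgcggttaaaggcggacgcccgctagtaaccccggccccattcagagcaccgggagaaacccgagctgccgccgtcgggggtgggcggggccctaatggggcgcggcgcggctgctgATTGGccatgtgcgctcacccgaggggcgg
Npc2: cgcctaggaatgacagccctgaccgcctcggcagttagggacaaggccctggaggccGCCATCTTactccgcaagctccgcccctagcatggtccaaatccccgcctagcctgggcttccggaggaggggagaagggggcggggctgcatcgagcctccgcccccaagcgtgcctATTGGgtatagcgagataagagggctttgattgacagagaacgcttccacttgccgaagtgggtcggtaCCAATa

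Srebf1 and Npc1 fell in the knockout, and no member rose. Both were called, meaning an edgeR quasi-likelihood p that stayed under 0.05 after Benjamini-Hochberg adjustment across 13077 genes. This is 2 of 30 tested members lower, where 2.79% of all tested genes were lower, and 0 higher, where 1.80% were higher. DESeq2 called 4 members lower, adding Insig1 and Npc2, where it called 3.56% of all tested genes lower, and 1 member higher, Nr1h2, where it called 2.5% higher. At an unadjusted p under 0.05, 9 members were lower, against a background of 8.43%, and 1 was higher, against 6.94%. In 4 members (Srebf1, Npc1, Npc2 and Abcg1) all 3 knockout libraries lay below all 3 wild-type libraries, a separation seen in 11.2% of tested genes. In 1 member, Nr1h2, all 3 knockout libraries lay above, as in 9.68% of tested genes. The fitted log2 fold change was negative in 23 members and positive in 7, with a median of -0.18, beside a median of 0.0040 over all tested genes. Leaving out knockout replicate 1 brought the members' median to -0.09, and leaving out knockout replicate 3 brought it to -0.32. It is not stated that the replicates came from separate cultures, and p-values then reflect only how far these libraries differ, which may be a technical spread.

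**Figure D1:**
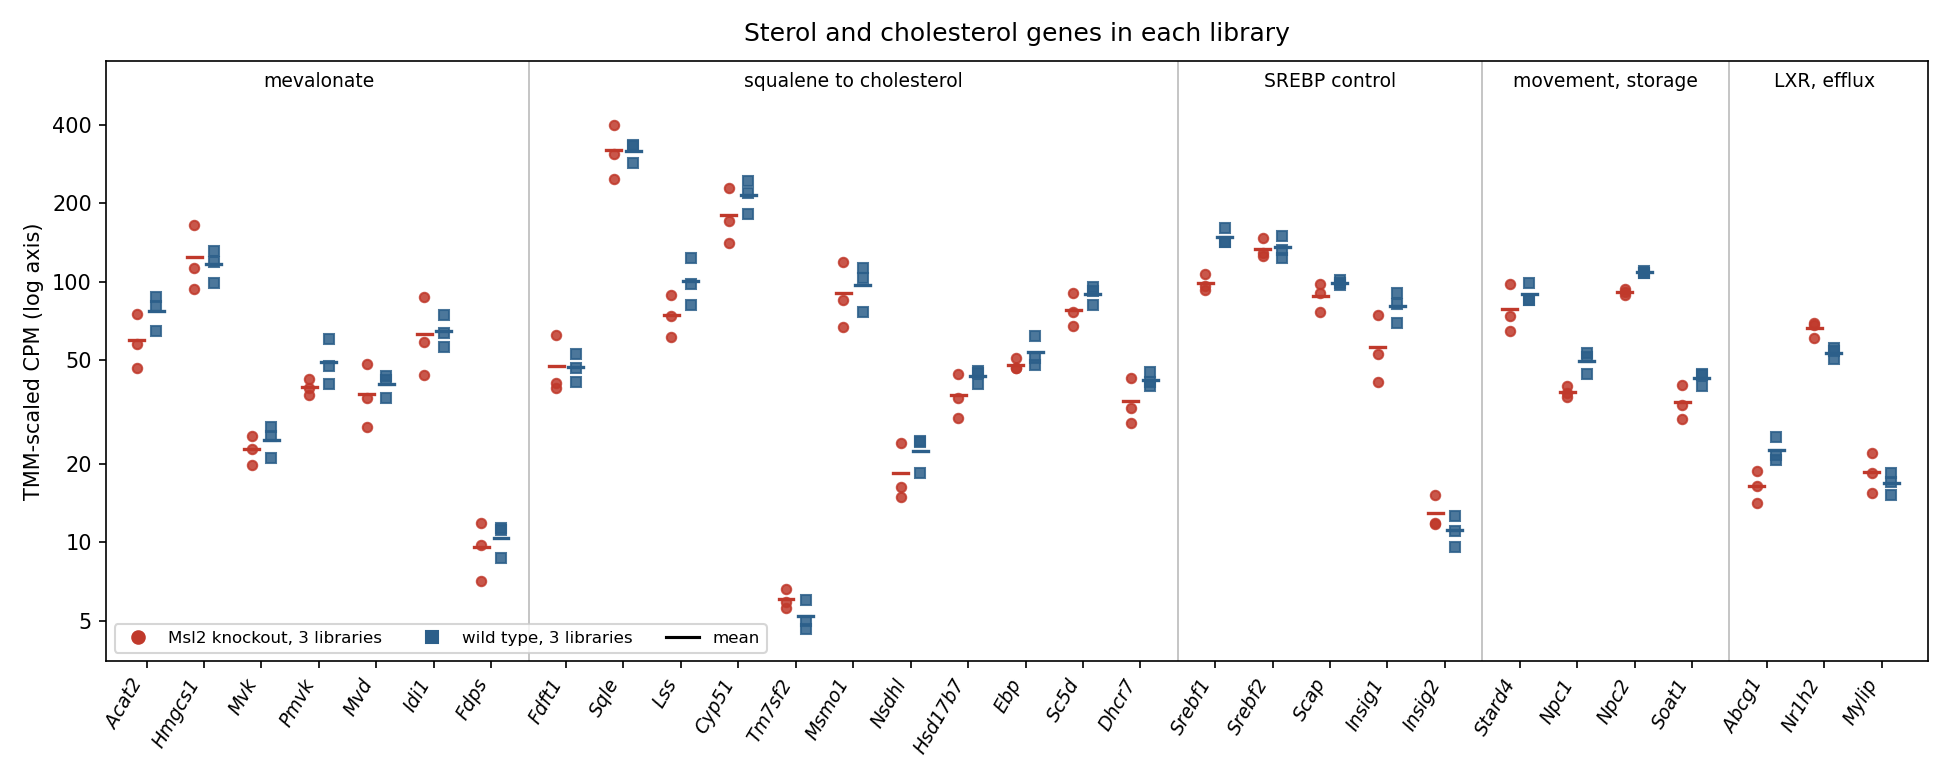
CPM of the 30 tested genes in each library (log axis), with Msl2 knockout as red circles left of wild type as blue squares; bars are means of 3 libraries. Srebf1, Npc1, Npc2 and Abcg1 have all knockout points below the wild-type points, and Nr1h2 has them above.

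**Figure D2:**
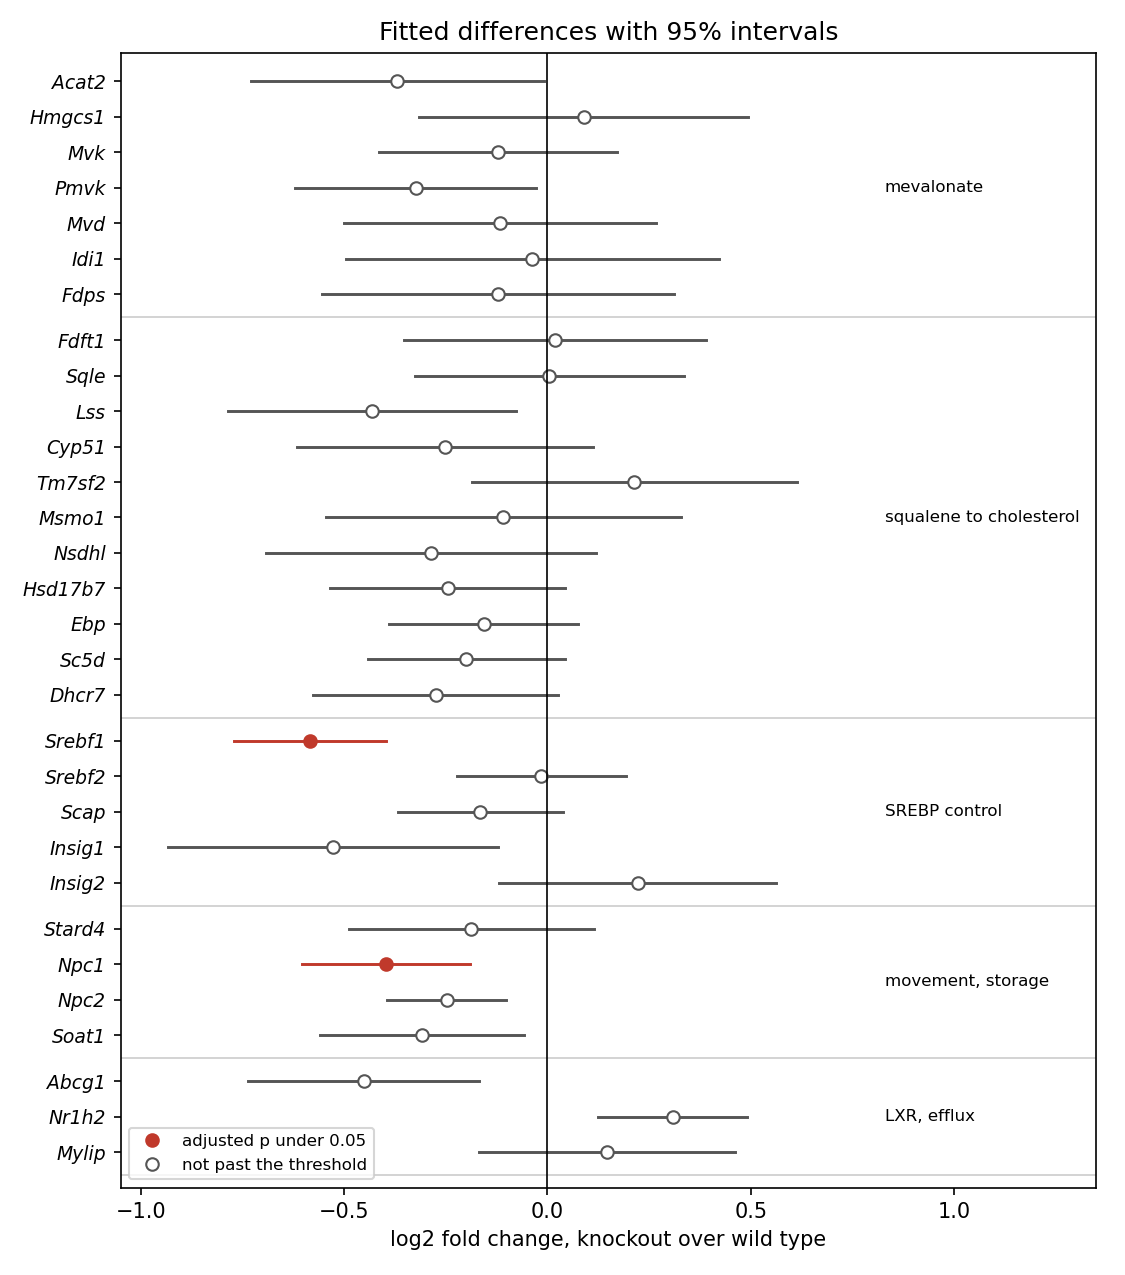
Fitted log2 fold change, knockout over wild type, of the 30 tested genes, with 95% intervals from edgeR. Filled red points mark Srebf1 at -0.58 and Npc1 at -0.40, the 2 genes past the adjusted threshold; open points were not past it.

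Of the 5 genes for the SREBPs and their retention in the endoplasmic reticulum, 1 fell, Srebf1, and 4 did not pass the test. Srebf1 (ENSMUSG00000020538.15, chromosome 11, 60199084 to 60224186, mm10), the gene for SREBP-1, was at 96.1, 92.7 and 107 CPM in knockout replicates 1, 2 and 3, against 160, 141 and 142 CPM in wild-type replicates 1, 2 and 3. The groups did not overlap, and each group's libraries lay within 1.15 times of each other. Means were 98.6 ± 7.41 CPM in the knockout and 148 ± 10.9 CPM in the wild type (SD, n = 3 each), a ratio of 0.667. The log2 fold change was -0.58 ± 0.08 (SE), with a 95% interval of -0.77 to -0.40 and an adjusted p of 0.00336 in edgeR. It was called in all 14 alternative settings, with adjusted p up to 0.0392. The gene counts do not separate the SREBP-1a and SREBP-1c transcripts, which use different starts. Its RefSeq span shares 114 bases with Rai1, which was at 41.1 ± 4.59 CPM in the knockout and 46.4 ± 5.10 CPM in the wild type (log2 fold change -0.17, adjusted p 0.553).

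Srebf2, the gene for SREBP-2, was at 129, 126 and 147 CPM in the knockout replicates, against 150, 132 and 123 CPM in the wild-type replicates. The groups overlapped fully, and its log2 fold change was -0.01 with a 95% interval of -0.22 to 0.19. Whether Srebf1 and Srebf2 differed in their response was not tested. Scap, the escort protein, was at 76.7, 90.6 and 97.9 CPM in the knockout, against 97.4, 101 and 98.6 CPM in the wild type, with a log2 fold change of -0.16 (adjusted p 0.466). Insig1, a retention protein and itself a well-known SREBP target, was at 41.2, 52.6 and 74.5 CPM in the knockout, against 90.7, 69.5 and 82.3 CPM in the wild type. Knockout replicate 3 lay inside the wild-type range and the other two below it. The log2 fold change was -0.53 ± 0.18 (SE), and the adjusted p in edgeR was 0.169. Without knockout replicate 3 it was -0.78 with an adjusted p of 0.0104, and DESeq2 gave 0.0424 with all libraries. Insig2, the other retention protein, was at 15.2, 11.7 and 11.8 CPM in the knockout, against 12.6, 9.59 and 11.01 CPM in the wild type, with overlapping groups and a log2 fold change of 0.22 (adjusted p 0.586).

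Of the 4 genes for sterol movement and storage, 1 fell, Npc1, and the fitted values of all 4 were negative (median -0.28). Npc1 (ENSMUSG00000024413.14, chromosome 18, 12189694 to 12236506, mm10) encodes the membrane protein that exports cholesterol from lysosomes. It was at 36.001, 39.8 and 37.2 CPM in the knockout replicates, against 53.1, 51.6 and 44.3 CPM in the wild-type replicates. The groups did not overlap, with wild-type replicate 3 the closest to the knockout. The log2 fold change was -0.40 ± 0.09 (SE), with a 95% interval of -0.60 to -0.19 and an adjusted p of 0.0399 in edgeR. The call was lost on leaving out any 1 library other than wild-type replicate 3 (adjusted p 0.0768 to 0.140), while without wild-type replicate 3 it held at 0.0154. It was also lost without both libraries numbered 2 (0.232), with library totals in place of TMM scaling (0.0900) and when genes under a mean log2 CPM of 2 were dropped (0.0595). Its RefSeq span shares 8982 bases with Rmc1, which was at 46.0 ± 2.67 CPM in the knockout and 46.7 ± 2.92 CPM in the wild type (adjusted p 0.960). The strand setting of the counts is not given in the sources used here.

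Npc2, the soluble lysosomal protein that hands cholesterol to NPC1, was at 89.2, 93.9 and 91.5 CPM in the knockout, against 108, 110 and 108 CPM in the wild type. The groups did not overlap, and only 0.627% of tested genes had a smaller within-group SD of log2 CPM. The log2 fold change was -0.25 ± 0.07 (SE), with a 95% interval of -0.39 to -0.10 and an adjusted p of 0.0668 in edgeR, which missed the threshold. DESeq2 gave 0.0486. Soat1, which esterifies cholesterol for storage, was at 40.0, 33.5 and 29.6 CPM in the knockout, against 43.9, 44.0 and 39.9 CPM in the wild type. Its groups overlapped narrowly, and its log2 fold change was -0.31 (adjusted p 0.200). Stard4, a cytosolic sterol carrier, was at 64.7, 73.6 and 97.5 CPM in the knockout, against 98.3, 85.3 and 84.6 CPM in the wild type, with a log2 fold change of -0.19 (adjusted p 0.614).

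None of the 3 tested genes of LXR, efflux and receptor turnover passed edgeR's test, 2 had an unadjusted p under 0.05 (15.4% of all tested genes did), and DESeq2 called 1 (6.06% of all tested genes). Nr1h2, which encodes LXR beta, was at 68.3, 60.8 and 69.5 CPM in the knockout, against 50.2, 55.7 and 54.3 CPM in the wild type. Its groups did not overlap, and its log2 fold change of 0.31 ± 0.08 (SE) missed the threshold in edgeR (adjusted p 0.0678) and passed it in DESeq2 (0.0422). Abcg1, an exporter of cholesterol and a classic LXR target, was at 18.7, 16.4 and 14.2 CPM in the knockout, against 25.3, 21.7 and 20.6 CPM in the wild type. Its groups did not overlap either, and its log2 fold change of -0.45 ± 0.13 (SE) had an adjusted p of 0.0820. Mylip, an LXR-induced ubiquitin ligase for lipoprotein receptors, was at 22.1, 18.4 and 15.4 CPM in the knockout, against 18.4, 16.98 and 15.1 CPM in the wild type. Its groups overlapped, with a log2 fold change of 0.15 (adjusted p 0.739). Abca1, the other main exporter, had 0 reads in the 3 knockout libraries and 0, 2 and 0 reads in wild-type replicates 1, 2 and 3, which is below the limit of detection given above.

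The enzymes of synthesis did not pass the test in either direction among the 13077 genes kept. Of 18 tested, edgeR and DESeq2 called 0, 3 had an unadjusted p under 0.05 and were lower (Lss, Pmvk and Acat2), and the groups overlapped in all 18. With no filter on low counts, edgeR called these 3 lower, with adjusted p of 0.000186 for Lss, 0.0385 for Pmvk and 0.00357 for Acat2, and 2.7% of 26696 genes lower. Their log2 fold changes hardly moved with that setting, at -0.44 for Lss, -0.33 for Pmvk and -0.37 for Acat2. The calls thus came from smaller p-values and not from larger differences, and the reason was not tested. Of the 14 alternatives, the fit with no filter was the only one that called any of the 18. Fitted log2 fold changes were negative in 14 and positive in 4, with a median of -0.14. Of the 7 mevalonate steps, from acetyl-CoA to farnesyl diphosphate, 6 were negative with a median of -0.12. Acat2, the cytosolic thiolase that starts the route, was at 46.6, 57.8 and 74.97 CPM in the knockout, against 80.4, 64.4 and 86.8 CPM in the wild type. Its log2 fold change was -0.37 (adjusted p 0.308), and reads shared with its near copy Acat3 cannot be told apart here. Hmgcs1, the HMG-CoA synthase, was at 93.8, 113 and 166 CPM in the knockout, against 132, 99.1 and 119 CPM in the wild type. The knockout libraries enclosed the wild-type range, and the log2 fold change was 0.09 with a 95% interval of -0.32 to 0.49.

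The kinases Mvk and Pmvk had log2 fold changes of -0.12 and -0.32, and Mvd, the decarboxylase that follows them, -0.12. Pmvk was at 39.2, 36.6 and 42.1 CPM in the knockout, against 59.98, 40.4 and 47.4 CPM in the wild type, so that wild-type replicate 1 stood highest. Idi1, the isopentenyl diphosphate isomerase, was at 43.8, 58.4 and 87.0 CPM in the knockout, against 63.6, 56.0 and 74.4 CPM in the wild type. The highest and lowest of the 6 values were both knockout libraries, and the log2 fold change was -0.04 with a 95% interval of -0.50 to 0.42. Fdps, the farnesyl diphosphate synthase, had a log2 fold change of -0.12 (adjusted p 0.866).

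Of the 11 steps from squalene to cholesterol, 8 were negative, with a median of -0.20. Fdft1, which makes squalene, was at 39.2, 40.8 and 62.3 CPM in the knockout, against 52.6, 41.3 and 46.5 CPM in the wild type (log2 fold change 0.02). Sqle, the epoxidase that acts on squalene, was at 248, 308 and 400 CPM in the knockout, against 332, 286 and 334 CPM in the wild type, with a 95% interval of the log2 fold change of -0.33 to 0.34. For both enzymes the wild-type values fell within the knockout range. Lss, which closes the ring to lanosterol, was at 61.3, 73.6 and 89.0 CPM in the knockout, against 123, 81.4 and 97.9 CPM in the wild type. Only knockout replicate 3 overlapped the wild type, and its log2 fold change of -0.43 ± 0.16 (SE) was the lowest among the 18 enzymes (adjusted p 0.203). Cyp51, the lanosterol demethylase, was at 141, 171 and 229 CPM in the knockout, against 244, 181 and 219 CPM in the wild type (log2 fold change -0.25).

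Msmo1, Nsdhl and Hsd17b7, which strip further methyl groups from the ring, had log2 fold changes of -0.11, -0.29 and -0.25. Of the enzymes that finish the molecule, the isomerase Ebp had -0.16, the desaturase Sc5d -0.20 and the reductase Dhcr7 -0.27. Adjusted p-values of these 6 genes lay between 0.383 and 0.884. Tm7sf2, a sterol reductase, was the enzyme with the highest fitted value, 0.21 (adjusted p 0.685). It was at 5.91, 5.59 and 6.60 CPM in the knockout, against 6.01, 4.62 and 4.98 CPM in the wild type.

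The enzymes varied together between libraries of the same genotype. For each gene the log2 CPM in a library was set against its mean over the 6 libraries. The median deviation over the 18 enzymes was -0.37, -0.12 and 0.24 in knockout replicates 1, 2 and 3, against 0.20, -0.12 and 0.16 in wild-type replicates 1, 2 and 3. Over all tested genes the same median lay between -0.0053 and 0.0049 in every library. In knockout replicate 3, 17 of 18 enzymes were above their own mean, as they were in wild-type replicates 1 and 3. In knockout replicates 1 and 2 only 1 of 18 was, and in wild-type replicate 2 only 3 were. Tm7sf2 was the enzyme above its mean in both knockout replicates 1 and 2, and Ebp was among the others that departed from the pattern. Knockout replicate 1 was the lowest of the 6 libraries for 14 enzymes, and knockout replicate 3 the highest for 8.

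**Figure D3:**
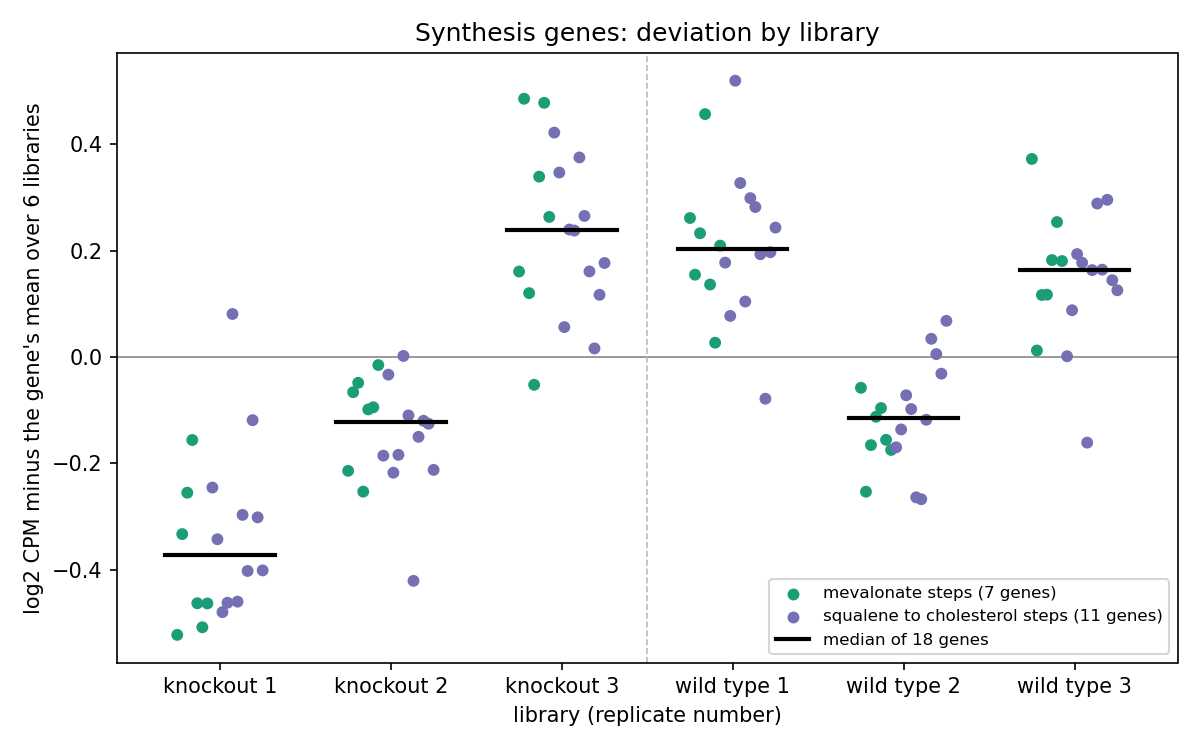
Deviation of log2 CPM from each gene's mean over 6 libraries, for 7 mevalonate and 11 squalene-to-cholesterol enzymes (points), with the median of the 18 as a bar. Knockout replicates 1 and 2 and wild-type replicate 2 lie mostly below 0, and knockout replicate 3 and wild-type replicates 1 and 3 mostly above.

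This spread was wide for these cells. The within-group SD of log2 CPM had a median of 0.286 over the enzymes and 0.150 over all tested genes, and 17 of 18 enzymes lay above the median of all tested genes. In 14 of 18 (77.8%) knockout replicate 1 was the lowest and replicate 3 the highest of the knockout libraries while replicate 2 was the lowest wild-type library. The same held for 800 of 13077 tested genes (6.12%), and the order was chosen after the values were seen. Insig1 shared it, and none of the other 11 tested members did. Total counts were 16110623, 20803227 and 15250975 in knockout replicates 1, 2 and 3. The share of reads on the 10 most abundant genes was 9.61%, 8.55% and 8.66% in the same libraries. The median log2 fold change of the enzymes was -0.07 without knockout replicate 1, -0.34 without knockout replicate 3, -0.25 without wild-type replicate 2 and -0.08 without wild-type replicate 3. The part of depth in this spread was not tested, nor was that of the difference in Rag1 and Rag2 reads between wild-type replicate 2 and the other wild-type libraries.

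Beyond the 31 members, 68 other genes of the pathway were listed by role, of which 58 were tested. Of these, edgeR called 3 lower and 0 higher, against 2.79% and 1.80% of all tested genes, and DESeq2 called 5, against 6.06%. At an unadjusted p under 0.05 there were 8 lower and 4 higher, against 8.43% and 6.94% of all tested genes. Of 8 tested SREBP targets of fatty acid synthesis, edgeR called 1 and DESeq2 2, both lower. The gene called by both was Scd1, the stearoyl-CoA desaturase and a target of both SREBP-1 and LXR, at 151, 168 and 153 CPM in the knockout, against 429, 350 and 292 CPM in the wild type. Its groups were far apart, with a log2 fold change of -1.18 ± 0.13 (SE) and an adjusted p of 0.000592. The other was Scd2, a related desaturase, at 433, 465 and 566 CPM in the knockout, against 833, 601 and 595 CPM in the wild type. All knockout libraries lay below the wild type, and the log2 fold change of -0.47 had an adjusted p of 0.108 in edgeR and 0.0116 in DESeq2. Acacb had a value similar to that of Scd1, -1.17, at 0.691 ± 0.143 CPM in the knockout and 1.58 ± 0.103 CPM in the wild type, but missed the threshold (adjusted p 0.0675). Scd2 and Acacb were named after their values were seen. Fasn, the fatty acid synthase and another SREBP target, was at 871 ± 158 CPM in the knockout and 839 ± 31.4 CPM in the wild type (adjusted p 0.909), and was also named after its value was seen.

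Of 17 tested genes for other sterol carriers, lysosomal release and ester cycling, 1 fell in edgeR's test. Osbpl5, an oxysterol-binding-protein relative that carries lipids at membrane contact sites, was at 6.90, 13.5 and 7.26 CPM in the knockout, against 26.2, 27.5 and 25.3 CPM in the wild type. Even the highest knockout library, replicate 2, was far below the wild type, and the log2 fold change was -1.49 ± 0.22 (SE) with an adjusted p of 0.00340. DESeq2 also called Tspo, a mitochondrial outer membrane protein that binds cholesterol, higher (adjusted p 0.0279). Tspo was at 32.6, 28.4 and 27.9 CPM in the knockout, against 19.2, 21.1 and 24.9 CPM in the wild type, and in edgeR its log2 fold change was 0.44 (adjusted p 0.0641). The groups did not overlap, and the gene was named after its value was seen. Of 8 tested LXR partners and oxysterol genes, 1 fell. Lpcat3, a phospholipid acyltransferase induced by LXR, was at 39.7, 33.2 and 37.9 CPM in the knockout, against 55.5, 46.2 and 47.4 CPM in the wild type. Its log2 fold change was -0.43 ± 0.10 (SE) with an adjusted p of 0.0426, and the call was lost on leaving out any 1 library (0.0507 to 0.173).

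None of 14 genes for SREBP cleavage and sterol sensing was called by edgeR or DESeq2, and 2 had an unadjusted p under 0.05, a share of 14.3% against 15.4% of all tested genes. None of 11 genes of the isoprenoid branches was called by either tool, and 0 had an unadjusted p under 0.05. The smallest p belonged to Rce1, a protease for prenylated proteins (log2 fold change -0.22, adjusted p 0.472). The list medians were -0.06 for cleavage and sensing, -0.03 for the isoprenoid branches, -0.31 for fatty acid synthesis, -0.01 for carriers and 0.0096 for LXR partners.

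**Figure D4:**
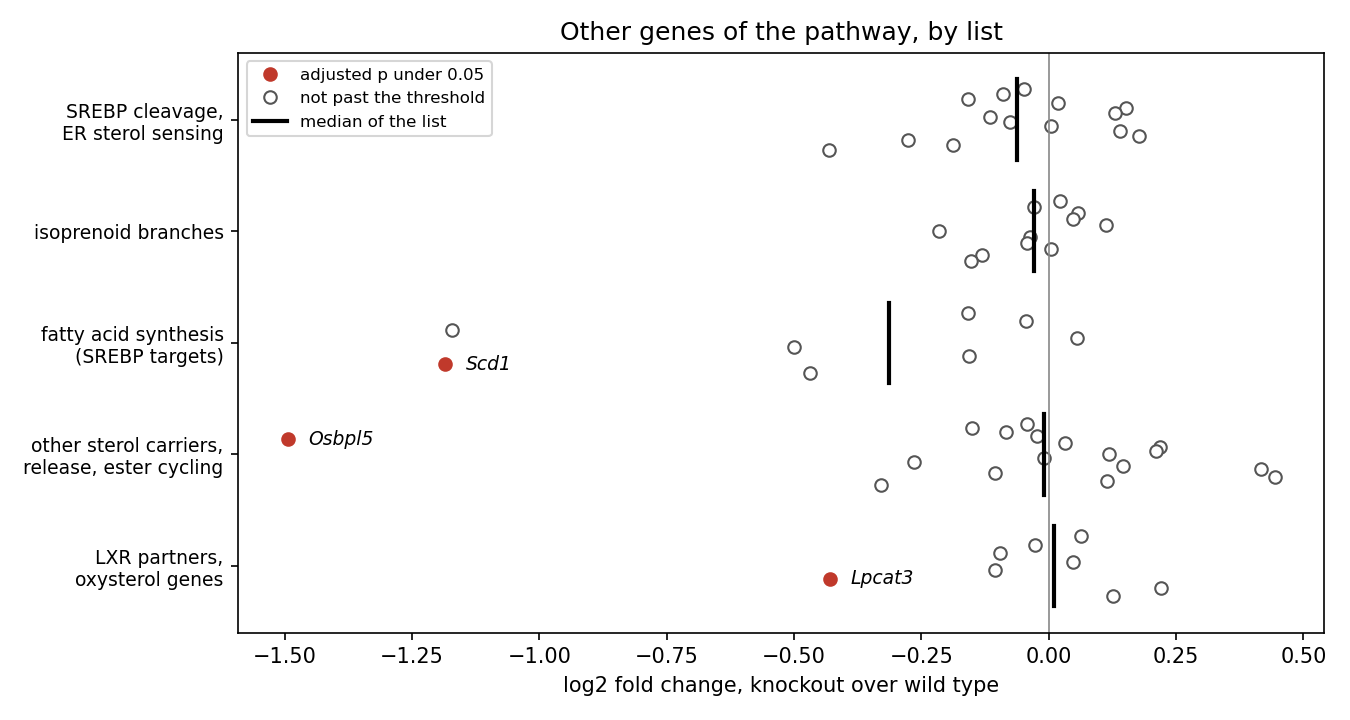
Log2 fold change, knockout over wild type, of 58 tested pathway genes outside the 31 members, by list; black bars are list medians. Filled red points are Scd1 at -1.18, Osbpl5 at -1.49 and Lpcat3 at -0.43, the genes past the adjusted threshold.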

How the data were processed

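The 6 RNA files (3 Msl2 knockout and 3 wild-type libraries) hold raw counts of reads per gene as deposited, going by their headers and whole-number values. The labels' protocols describe total RNA freed of ribosomal RNA. Tools named in the submitters' processing notes include STAR 2.5.3a and featureCounts 2.0.0, with the build mm10; annotation release and strand setting were not found in the labels or headers. Chromatin immunoprecipitation and input samples (9) were not used. Groups and replicate numbers came from sample titles.

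Of 55335 identifiers, 54587 matched a symbol with their version, 567 without it and 181 not at all. The function filterByExpr kept 13077 genes, which were scaled by TMM and tested with edgeR 4.0.16 in R 4.3.3 (quasi-likelihood, no covariate), with Benjamini-Hochberg adjustment across them and a threshold of 0.05. CPM was computed here on TMM-scaled library sizes, and the SE from the fold change and the F statistic. CPM is not scaled by gene length, so levels of different genes were not compared. The biological coefficient of variation was 0.109. Replicates of 1 group differed by more than sampling noise in every pair (chi-square per degree of freedom 7.29 to 19.8). The scripts were tested on simulated data.

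Alternatives were RLE scaling, library totals, no filter, dropping genes under a mean log2 CPM of 2, DESeq2 1.42.0, voom from limma 3.58.1, a replicate block, and leaving out each library or both numbered 2. All members are accounted for. From each pathway list up to 2 called genes per direction with the smallest p were named, or, with none called, the 1 gene with the smallest p; values of 1 gene so chosen are not reported here. Members, lists and tests were chosen with earlier results of these data known. Promoters came from RefSeq. Figures were drawn with matplotlib 3.10.9.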

Additional observations from a re-analysis of the deposited data

How the results depend on the processing

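Srebf1, Scd1 and Osbpl5 were called lower under all 14 alternatives. The count of members called lower, 2, was 1 with library totals, when genes under a mean log2 CPM of 2 were dropped and without both libraries numbered 2, 7 with no filter (Abcg1, Acat2, Insig1, Lss, Npc1, Pmvk and Srebf1), 4 with DESeq2 and 4 with the replicate block, and 1 to 2 on leaving out each library. Members called higher, 0, were 1 with no filter and 1 with DESeq2, Nr1h2 in both. Over all genes, 235 higher and 365 lower calls became 482 and 721 with no filter, and 138 to 227 and 242 to 316 on leaving out each library. Lower calls were 232 with that stricter filter and 224 without both libraries numbered 2. With the replicate block there were 381 higher and 565 lower calls, and Npc2 and Abcg1 were added to the members called. Same-numbered libraries did not deviate together throughout (correlations of 0.029, 0.21 and 0.40 for numbers 1, 2 and 3), so the numbers were not taken as pairs, and not every library correlated best with its own number.

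Signs turned only in genes that were not called. Srebf2 was at 0.0017 with library totals and 0.017 without both libraries numbered 2. Sqle was at -0.00020 with no filter, -0.019 with limma-voom, -0.017 with the replicate block and -0.036 without both libraries numbered 2, and Fdft1 at -0.011 with limma-voom and -0.0017 with the block. On leaving out each library, log2 fold changes ranged from -0.082 to 0.065 for Srebf2, -0.19 to 0.16 for Sqle, -0.22 to 0.14 for Fdft1, -0.17 to 0.25 for Hmgcs1, -0.33 to 0.17 for Idi1, -0.35 to 0.068 for Msmo1, -0.34 to 0.054 for Mvd and -0.29 to 0.048 for Fdps. The cause was not tested. The enzymes' median deviations with library totals were -0.37, -0.086 and 0.23 in knockout replicates 1, 2 and 3, and 0.21, -0.089 and 0.099 in wild-type replicates 1, 2 and 3. Groups of 3 libraries limit what a test can detect for these variable genes: the median 95% interval of the 18 enzymes was 0.72 wide on the log2 scale.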
